A study of Mus musculus with 6 samples.

Results

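Type I interferon stimulated genes are described here across 6 tongue libraries. The 40 genes were chosen by name as well-known targets of type I interferon, and they stand among 35275 genes in the expression table. Of the 40, 39 were found by gene symbol, and Ifit3b was found by its Ensembl ID under the older symbol I830012O16Rik. RNA was sequenced from tongue tissue of 3 Aim2 KO and 3 wild type samples. All 6 samples, the wild type ones included, came from mice given 4NQO (4-nitroquinoline 1-oxide, a carcinogen that damages DNA and produces lesions of the oral epithelium) at 100 µg/ml in drinking water for 20 weeks. No tongue without 4NQO is analysed here, so every difference below is between genotypes under the carcinogen. The protein that Aim2 encodes detects DNA in the cytosol and builds an inflammasome on it. The labels give no strain, age or sex, do not say how the Aim2 KO allele was made, and leave it unsaid if every library is a separate animal. The p-values below therefore measure only the spread between these libraries.

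Type I interferons are small secreted proteins that cells make when sensors detect foreign or misplaced nucleic acid. They bind the receptor of Ifnar1 and Ifnar2 chains, whose kinases activate a complex that holds STAT2 and IRF9 and binds a short DNA element, the interferon stimulated response element (ISRE), in the promoters of its targets. The targets include the sensors and factors of the pathway itself, so that the response feeds forward, and proteins that bind, cut or modify viral RNA and protein. Many of them are also raised by type III interferon and, more weakly, by interferon gamma, so their level alone does not name the ligand.

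The promoters are shown first, because the ISRE is the shared feature by which these genes are known. The 40 genes were chosen by name and not by sequence. Being known targets of the pathway, they are not a choice independent of the ISRE, so its share among them is description and not support. In RefSeq promoter windows of GRCm38.p6, 250 bases before to 50 bases after each annotated start, the ISRE-like motif GAAANNGAAA was searched on both strands (TTTCNNTTTC on the other), and overlapping matches were counted. It occurred in 1131 of 32851 promoters (3.44%). Of the 40 genes 29 had a window in the table, with 32 windows in all, and 16 of these windows (50%) held the motif. The following windows belong to genes described below, are written 5′ to 3′ on the gene's strand, and have the matched motif bases in capitals, with overlapping copies run together.
Isg15: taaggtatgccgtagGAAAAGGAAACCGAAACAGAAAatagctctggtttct
Bst2: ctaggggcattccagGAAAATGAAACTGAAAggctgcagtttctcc
Ifit1: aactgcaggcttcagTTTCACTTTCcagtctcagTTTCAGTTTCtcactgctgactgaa
Ifit3: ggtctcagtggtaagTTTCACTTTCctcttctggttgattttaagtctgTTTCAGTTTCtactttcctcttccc
Ifit3b: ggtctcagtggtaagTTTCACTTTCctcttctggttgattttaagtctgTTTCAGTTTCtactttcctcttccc
Oas1a: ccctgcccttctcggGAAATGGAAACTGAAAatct
Oas1g: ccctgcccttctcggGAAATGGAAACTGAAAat
Oas3: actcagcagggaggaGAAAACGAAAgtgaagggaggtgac
Stat2: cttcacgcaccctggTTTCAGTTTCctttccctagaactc
The windows are Isg15 at chr4:156200860-156200911 (minus strand), Bst2 at chr8:71537572-71537617 (minus), Ifit1 at chr19:34640770-34640828 (plus), Ifit3 at chr19:34583358-34583431 (plus), Ifit3b at chr19:34607754-34607827 (plus), Oas1a at chr5:120907526-120907560 (minus), Oas1g at chr5:120887614-120887646 (minus), Oas3 at chr5:120777710-120777749 (minus) and Stat2 at chr10:128270261-128270300 (plus). Each lies upstream of its gene's annotated start.

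Isg15 had 3 overlapping copies of the motif and Bst2 had 2. The printed windows of the neighbouring genes Ifit3 and Ifit3b were identical in 74 of 74 bases, and those of the neighbours Oas1a and Oas1g in 33 of 33 bases. Across the 29 genes with a window, 15 held the motif in at least 1 window, and the 14 without it were Cmpk2, Dtx3l, Epsti1, Herc6, Ifi35, Ifi44, Ifit2, Irf7, Irf9, Oasl1, Oasl2, Parp12, Samd9l and Xaf1. The median log2 difference between Aim2 KO and wild type, on the log2(FPKM + 1) scale explained below, was 0.54 for the 15 genes with the motif and 0.47 for the 14 without it. A second motif, TTCNNNGAA (the core of an element known from the response to interferon gamma), occurred in 5 of the 32 windows (15.6%) and in 8.30% of all promoters. A match is a run of letters and not a measured binding site, and a window without one says nothing about the factor.

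**Figure D1:**
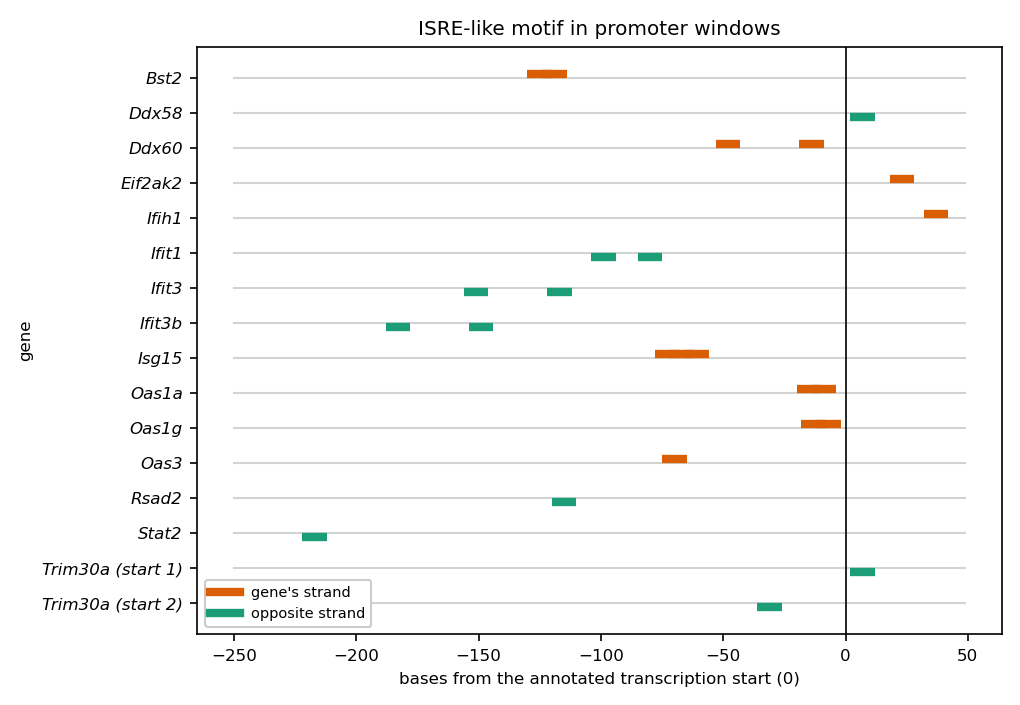
Positions of the ISRE-like motif GAAANNGAAA in the promoter windows of the 15 genes that hold it (vertical axis), in bases from the annotated start (horizontal axis). Orange bars are matches on the gene's own strand and green bars are matches on the opposite strand; Trim30a has 2 annotated starts, drawn separately. Most bars lie upstream of the start, those of Isg15 between 78 and 57 bases before it. Those of Ddx58, Eif2ak2 and Ifih1 lie just downstream, as does the Trim30a match at 2 to 11 bases after its start.

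The libraries held 21959204 to 25369400 reads, and 22220 genes were above 0 in at least 1 of them. Aim2 itself, the check of the labels, was counted at 3, 4 and 10 reads in the Aim2 KO libraries (replicates 1 to 3, as throughout), against 14, 25 and 30 in the wild type ones. At so few reads the check does not separate Aim2 KO replicate 3 (0.160 FPKM) from wild type replicate 1 (0.201 FPKM). Tongue was recognisable in every library, with Krt13 of the oral epithelium at 14017 FPKM or more and Acta1 of skeletal muscle at 2111 FPKM or more. FPKM is reads per unit of gene length, scaled to the library total. One library stood apart from its group: Aim2 KO replicate 1 had less of 9 of 10 skeletal muscle markers, of 6 of 6 endothelial markers and of 6 of 6 fibroblast markers than any wild type library. It also had the most S100a8, an inflammatory protein of neutrophils and stressed epithelium, at 3040, 468 and 363 FPKM in the Aim2 KO libraries, against 1575, 1057 and 1068 FPKM in the wild type libraries. Values are therefore given by library, and counts with and without Aim2 KO replicate 1.

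As a set, the 40 genes were higher in the mean of the Aim2 KO libraries than in that of the wild type libraries, and the excess lay in 2 of the 3 Aim2 KO libraries. Their summed level was 134.8, 299.4 and 295.5 FPKM in Aim2 KO replicates 1 to 3, against 167.7, 140.3 and 82.0 FPKM in wild type replicates 1 to 3. Aim2 KO replicates 2 and 3 were thus the highest and wild type replicate 3 the lowest, while Aim2 KO replicate 1 lay between wild type libraries. The difference of the log2(FPKM + 1) means, Aim2 KO minus wild type, was above 0 for 40 of 40 genes, as it was for 55.7% of the 22220 genes above 0. Without Aim2 KO replicate 3, and without wild type replicate 1, it was above 0 for 39 of 40, Oas1b being the exception each time. Its median over the 40 was 0.53, with a range of 0.03 (Oas1b) to 1.21 (Isg15), against a median of 0.01 over the 22220 genes. This scale understates the change of genes at low levels. On the linear scale the ratio of group means had a median of 1.81 and was at least 2 for 16 of the 40. In bulk tongue RNA, more cells of a type that express a gene and more RNA of that gene per cell cannot be told apart.

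None of the 33 genes of the 40 that could be tested passed. limma compared the groups on the log2 scale for the 12144 genes that averaged 1 FPKM or more, adjusted by Benjamini-Hochberg, with calls at an adjusted p under 0.05. It called 1 gene higher (0.00823%) and 0 genes lower in Aim2 KO, and 0 of the 33 genes tested here, each of which had an adjusted p of 0.9998. Of the 33, 13 were higher at an unadjusted p under 0.05, where 1.93% of all genes tested were. They were Irf7, Irf9, Eif2ak2, Ifit1, Oas1a, Oas1g, Oas3, Oasl2, Cmpk2, Bst2, Parp9, Parp12 and Parp14. limma's voom on the reads recovered from the FPKM also called 0 of the 33, with 13 at an unadjusted p under 0.05. The other 7 (Ddx60, Herc6, Oas1b, Oas2, Mx1, Mx2 and Epsti1) were below the expression filter and were not tested. A further 7 of those tested (Zbp1, Ifit3b, Oas3, Rsad2, Cmpk2, Ifi44 and Trim30a) averaged under 1 FPKM in wild type and passed only through their Aim2 KO level, so the counts over tested genes describe them and do not stand as support.

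The order of the libraries was similar from gene to gene. Aim2 KO replicate 1 was the lowest Aim2 KO library for 40 of 40 genes (44.4% of all genes above 0). Aim2 KO replicates 2 and 3 both exceeded all wild type libraries for 38 of 40 (15.9% of all), the exceptions being Dhx58 and Oas1b. Aim2 KO replicate 1 exceeded all wild type libraries for 5 of 40 (24.6% of all). It lay within the wild type range for 28 genes and below it for 7. The 5 genes are also those whose groups did not overlap (4.78% of the 22220 genes and 4.98% of the 12144 tested were separate in that direction, and 2.03% of the 22220 in the other), namely Eif2ak2, Oas1g, Cmpk2, Parp9 and Parp14. Within wild type, replicate 3 was the lowest for 33 of 40 genes (28.5% of all).

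**Figure D2:**
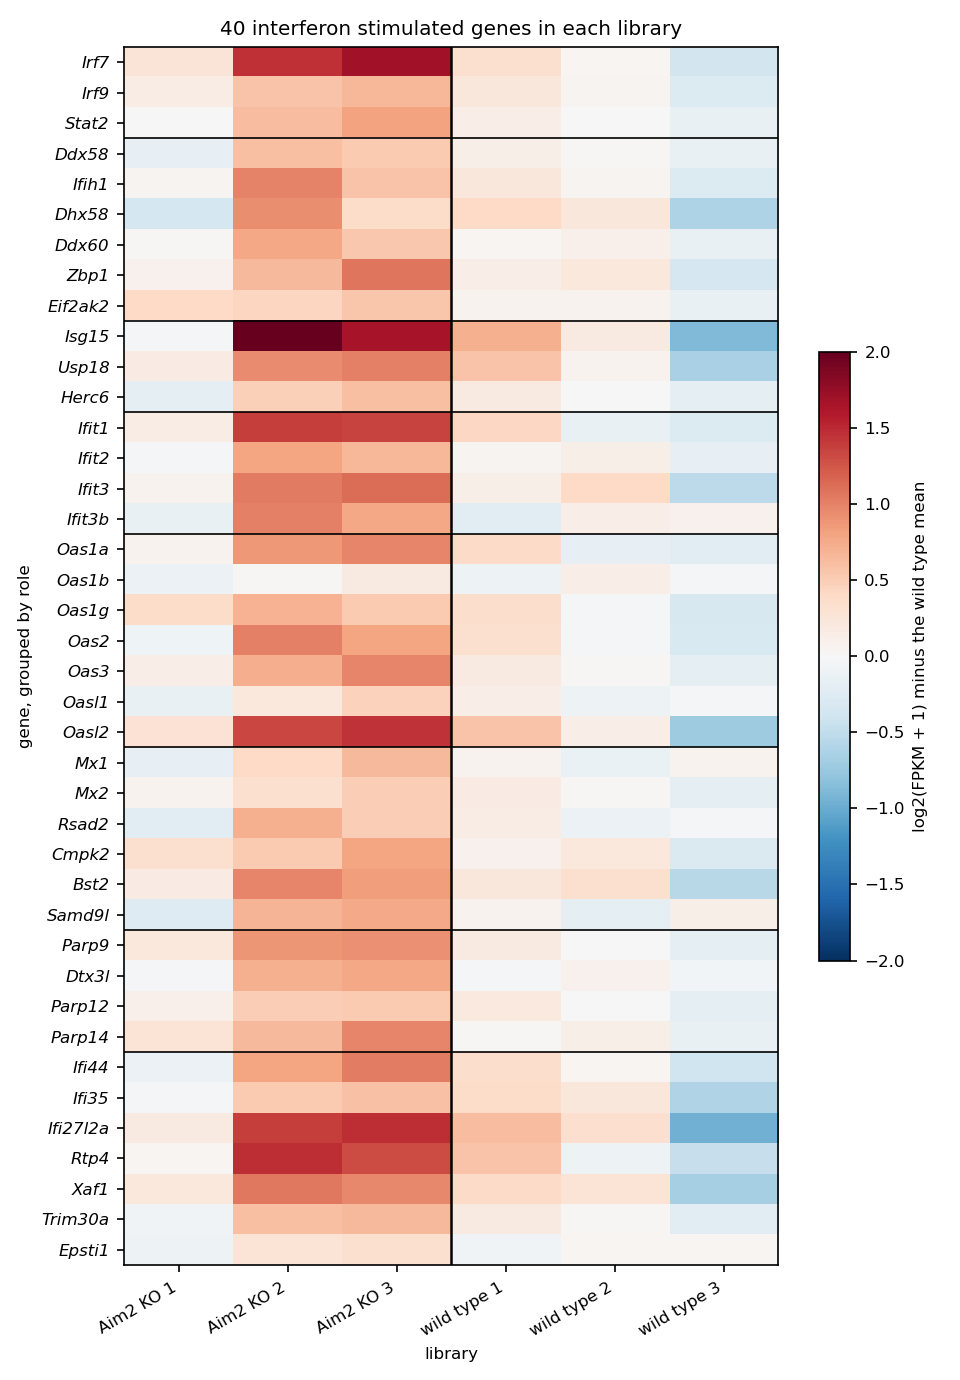
Level of each of the 40 genes (rows, grouped by role) in each library (columns, Aim2 KO left of wild type), as log2(FPKM + 1) minus the wild type mean of that gene; red is above and blue below the wild type mean. The columns of Aim2 KO replicates 2 and 3 are red nearly throughout, the column of Aim2 KO replicate 1 is pale, and that of wild type replicate 3 is mostly blue.

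Ratios to the wild type mean show the size of this split. The mean of Aim2 KO replicates 2 and 3 was 2.25 times the wild type mean at the median of the 40 genes, with a range of 1.18 (Oas1b) to 4.56 (Ddx60), and at least 2 times it for 26 genes. Aim2 KO replicate 1 was 1.02 times the wild type mean at the median, with a range of 0.472 (Mx1) to 1.54 (Cmpk2), and reached 2 times it for 0 genes. Without Aim2 KO replicate 1, limma called 12 of 12144 genes higher (0.0988%) and 2 lower (0.0165%). Irf7 was then called (log2 difference 1.57, limma adjusted p = 0.0379), and 30 of the 33 tested genes were higher at an unadjusted p under 0.05, against 5.29% of all. With array quality weights, by which limma gives less weight to libraries that scatter more (here 0.241 for Aim2 KO replicate 1 and 4.18 for Aim2 KO replicate 3), 65 genes (0.535%) were called higher and 3 (0.0247%) lower. Irf7 (adjusted p = 0.0326), Parp9 (adjusted p = 0.0362) and Parp14 (adjusted p = 0.0393) were among those called higher, and 31 of the 33 were at an unadjusted p under 0.05, against 10.2% of all. Aim2 KO replicate 1 was the lowest Aim2 KO library for 40 of 40 genes, so leaving it out had to raise every difference, and less weight on it pulls the same way. The 33 also include the 7 genes that passed only through their Aim2 KO level. The counts of 30 and 31 therefore do not stand as support. The count of 13 also moved the other way: it was 3 without Aim2 KO replicate 3, 3 without wild type replicate 3, 5 without Aim2 KO replicate 2 and 7 without wild type replicate 2. The part of whatever set Aim2 KO replicate 1 apart in these differences was not tested.

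Among the 3 transcription factors, Irf7 differed most. Irf7 is the factor through which the response raises its own ligands, and it is itself an interferon target. Its level was 3.55, 9.48 and 11.2 FPKM in the Aim2 KO libraries, against 3.76, 2.95 and 1.97 FPKM in the wild type libraries. Aim2 KO replicates 2 and 3 were at least 2 times as high as any wild type library, and Aim2 KO replicate 1 lay just under wild type replicate 1. The log2 difference was 1.13 (SE 0.36). Irf9, the DNA-binding subunit of the complex that occupies the ISRE, had 6.16, 8.57 and 9.26 FPKM in Aim2 KO, against 6.54, 5.70 and 4.32 FPKM in wild type. Stat2, its partner, had 2.88, 4.93 and 5.75 FPKM in Aim2 KO, against 3.24, 2.88 and 2.501 FPKM in wild type. In both, as in Irf7, Aim2 KO replicates 2 and 3 lay above wild type and Aim2 KO replicate 1 within it, with log2 differences of 0.46 (Irf9, SE 0.18) and 0.48 (Stat2, SE 0.21). Irf7 overlaps Phrf1 on the opposite strand and Irf9 overlaps Rnf31 on the same strand, and whether strand was used in counting is not given in the sources used here.

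The 6 sensors had a median log2 difference of 0.46. Eif2ak2 encodes PKR, a kinase that halts translation on binding double-stranded RNA. It had 4.32, 4.44 and 4.92 FPKM in Aim2 KO, against 3.25, 3.26 and 2.62 FPKM in wild type. The Aim2 KO libraries, replicate 1 included, lay close together and all above wild type. The log2 difference was 0.46 (SE 0.12). Ifih1 (MDA5, a sensor of long double-stranded RNA) had 1.84, 4.45 and 3.04 FPKM in Aim2 KO, against 2.19, 1.83 and 1.26 FPKM in wild type. Zbp1, a sensor of left-handed nucleic acid that starts cell death, had 0.774, 1.62 and 2.49 FPKM in Aim2 KO, against 0.820, 0.929 and 0.320 FPKM in wild type. For both, Aim2 KO replicate 1 lay within the wild type range. Ddx58 (RIG-I) and its relative Dhx58 (LGP2) had the smallest log2 differences of the class, 0.32 each. Dhx58 reached 0.938, 3.72 and 2.19 FPKM in Aim2 KO, against 2.24, 1.88 and 0.621 FPKM in wild type, so wild type replicate 1 slightly exceeded Aim2 KO replicate 3. Ddx60, an RNA helicase linked to RIG-I signalling, was below the filter, at 29, 156 and 97 reads in Aim2 KO and 34, 41 and 11 reads in wild type.

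Isg15 is a ubiquitin-like protein that is attached to other proteins, Herc6 is its ligase in the mouse, and Usp18 removes it and also damps the receptor. Isg15 had the largest log2 difference of the 40, 1.21 (SE 0.57). Its level was 10.04, 43.7 and 34.5 FPKM in Aim2 KO, against 17.3, 11.7 and 5.11 FPKM in wild type. The groups overlapped, since Aim2 KO replicate 1 was lower than 2 of the wild type libraries, and both groups were widely spread. Usp18 had 2.23, 4.54 and 4.81 FPKM in Aim2 KO, against 3.29, 2.05 and 0.846 FPKM in wild type, with a log2 difference of 0.70 (SE 0.34). Wild type replicates 1 to 3 took the same order in Usp18 as in Isg15. Herc6 was below the filter and had 0.812 ± 0.479 FPKM in Aim2 KO, against 0.443 ± 0.182 FPKM in wild type (SD, n = 3 each).

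The 4 IFIT genes, which encode proteins that bind viral RNA and block its translation, lie together on chromosome 19 and had a median log2 difference of 0.64. Ifit1 had 2.79, 7.86 and 7.66 FPKM in Aim2 KO, against 3.55, 2.08 and 1.83 FPKM in wild type, with a log2 difference of 0.96 (SE 0.34). Ifit3 had 1.83, 4.54 and 4.85 FPKM in Aim2 KO, against 1.93, 2.55 and 0.881 FPKM in wild type. Ifit2 had 107, 282 and 221 reads in Aim2 KO, against 130, 139 and 101 reads in wild type. All 4 had Aim2 KO replicate 1 within the wild type range and the other Aim2 KO libraries above it. Ifit3b, whose promoter window matches that of Ifit3 above, had 0.666, 2.70 and 2.14 FPKM in Aim2 KO, against 0.570, 1.03 and 0.966 FPKM in wild type. The 2 genes are near-identical copies and could share reads, so their separate levels are uncertain. Ifit1 and Ifit3 hold the ISRE-like motif in the window searched and Ifit2 does not, and their log2 differences were 0.96, 0.74 and 0.47.

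The 7 OAS genes lie in 2 groups on chromosome 5. The OAS enzymes make a short adenylate that switches on RNase L when double-stranded RNA is present, and the OAS-like proteins Oasl1 and Oasl2 belong to the same family. Oas1a was the most abundant, at 5.27, 9.85 and 10.8 FPKM in Aim2 KO, against 6.78, 4.33 and 4.10 FPKM in wild type (log2 difference 0.64, SE 0.27). Oasl2 had 3.84, 9.03 and 9.73 FPKM in Aim2 KO, against 4.90, 3.32 and 1.43 FPKM in wild type (log2 difference 1.02, SE 0.39). In both, Aim2 KO replicate 1 lay within the wild type range. Oas1g differed from them in that all 3 Aim2 KO libraries exceeded wild type, if narrowly, at 2.42, 3.28 and 2.83 FPKM in Aim2 KO, against 2.39, 1.605 and 1.117 FPKM in wild type (log2 difference 0.53, SE 0.19). Oas3 had 0.705, 1.58 and 2.06 FPKM in Aim2 KO, against 0.750, 0.585 and 0.351 FPKM in wild type, with Aim2 KO replicate 1 within the wild type range. Oas1b had the smallest difference of the 40, with overlapping levels of 0.604, 0.762 and 0.967 FPKM in Aim2 KO, against 0.620, 0.897 and 0.687 FPKM in wild type. In some laboratory strains this gene carries a stop codon, and the labels do not give the strain. Oas1a, Oas1g and Oas1b are close copies whose reads could be split in counting. Oas2 and Oasl1 averaged 1.32 ± 0.821 and 1.48 ± 0.514 FPKM in Aim2 KO, against 0.510 ± 0.324 and 1.16 ± 0.178 FPKM in wild type (SD, n = 3 each).

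Of the genes whose products act directly on viruses, Bst2 (tetherin, which holds budding virus at the cell surface) was the most abundant. It had 18.9, 34.1 and 30.5 FPKM in Aim2 KO, against 19.8, 21.2 and 11.1 FPKM in wild type, with a log2 difference of 0.66 (SE 0.28). Cmpk2, a mitochondrial nucleotide kinase beside Rsad2 on chromosome 12, had 1.21, 1.55 and 2.04 FPKM in Aim2 KO, against 0.865, 1.04 and 0.444 FPKM in wild type. Cmpk2 was the gene in which Aim2 KO replicate 1 stood highest against wild type, 1.54 times its mean. Rsad2 (viperin), its neighbour, did not share that: it had 0.572, 2.01 and 1.58 FPKM in Aim2 KO, against 1.04, 0.698 and 0.7998 FPKM in wild type, with Aim2 KO replicate 1 the lowest of the 6. Samd9l, a restriction factor of poxviruses, had 1.32, 3.45 and 3.67 FPKM in Aim2 KO, against 1.91, 1.45 and 1.99 FPKM in wild type. It too was lowest in Aim2 KO replicate 1. Mx1 and Mx2, GTPases that trap viral particles, were below the filter, at 9, 54 and 71 reads for Mx1 in Aim2 KO and 26, 11 and 26 reads in wild type. Mx2 had 11, 26 and 33 reads in Aim2 KO and 17, 9 and 0 reads in wild type, where 0 reads allow a level of up to 3 reads by counting error alone.

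**Figure D3:**
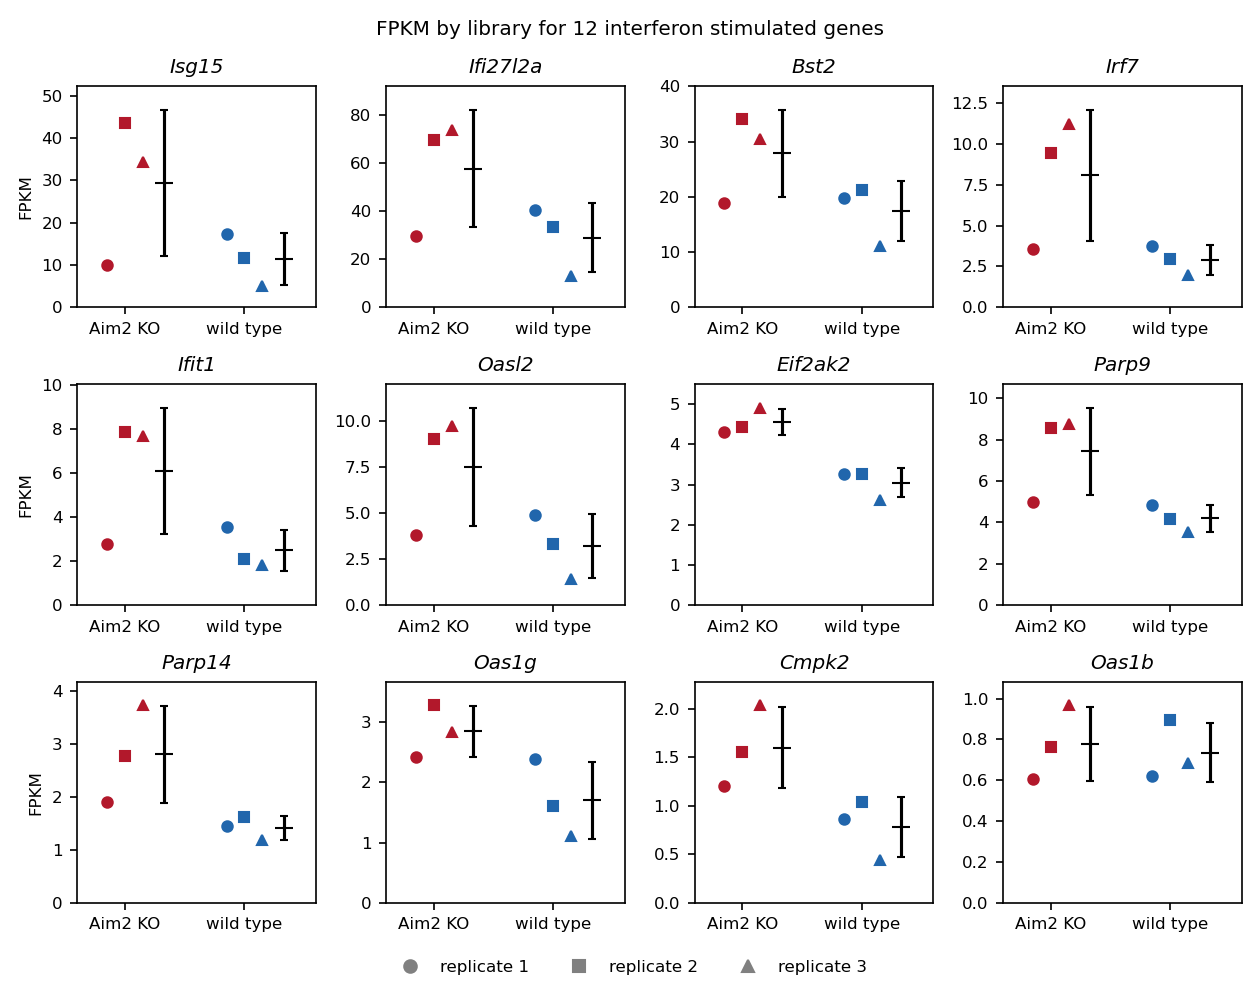
FPKM (vertical axes, each from 0) of 12 of the genes in Aim2 KO (red, left) and wild type (blue, right) libraries; circles, squares and triangles are replicates 1, 2 and 3, and the black bar beside each group is its mean with the SD. The Aim2 KO circle lies among the wild type points in Isg15, Ifi27l2a, Irf7, Ifit1 and Oasl2, and above them in Eif2ak2, Parp9, Parp14, Oas1g and Cmpk2; the groups overlap throughout in Oas1b.

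The 3 PARP genes and their partner Dtx3l had a median log2 difference of 0.56, and the groups were separate in Parp9 and Parp14. Parp9 and Dtx3l encode 2 proteins that work as a pair, an ADP-ribosyltransferase and a ubiquitin ligase. Parp9 had 4.99, 8.57 and 8.75 FPKM in Aim2 KO, against 4.85, 4.17 and 3.56 FPKM in wild type, with a log2 difference of 0.67 (SE 0.21). Parp14, an ADP-ribosyltransferase, had 1.90, 2.78 and 3.73 FPKM in Aim2 KO, against 1.45, 1.62 and 1.18 FPKM in wild type, with a log2 difference of 0.63 (SE 0.19). In both genes every Aim2 KO library exceeded every wild type library, though Aim2 KO replicate 1 did so narrowly in Parp9. Parp12, which acts against several RNA viruses, had 7.63, 10.3 and 10.6 FPKM in Aim2 KO, against 8.18, 6.99 and 6.05 FPKM in wild type. Dtx3l had 2.32, 4.62 and 4.85 FPKM in Aim2 KO, against 2.34, 2.64 and 2.31 FPKM in wild type. The wild type libraries of Dtx3l were nearly equal, and Aim2 KO replicate 1 was level with them. Parp9 and Dtx3l overlap on opposite strands of chromosome 16 and share a promoter region, so reads from the overlap cannot be told apart if counting ignored strand.

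Of the other induced genes, Ifi27l2a, which encodes a small membrane protein, was the most abundant of all 40. It had 29.5, 69.6 and 73.8 FPKM in Aim2 KO, against 40.6, 33.2 and 12.9 FPKM in wild type, with a log2 difference of 1.01 (SE 0.47). Rtp4, a regulator of interferon responses and a receptor transporter, had 3.02, 9.79 and 8.60 FPKM in Aim2 KO, against 4.78, 2.62 and 1.83 FPKM in wild type. Xaf1, which promotes cell death, had 1.32, 3.14 and 2.91 FPKM in Aim2 KO, against 1.61, 1.43 and 0.258 FPKM in wild type. In these 3 genes Aim2 KO replicate 1 fell between the wild type libraries, and wild type replicate 3 was the lowest of the 6. Ifi44, Ifi35, Trim30a and Epsti1 had log2 differences of 0.56, 0.36, 0.40 and 0.17, and Aim2 KO replicate 1 exceeded all wild type libraries in 0 genes of this class.

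The ligands that could drive the 40 genes were nearly unread. Of 20 interferon genes other than Ifng, 17 were listed at 0 in all libraries, and the 20 together had 0 reads in each Aim2 KO library, against 0, 1 and 4 in the wild type libraries. Single reads of Ifnb1 and Ifnz and 3 reads of Ifnk made up the wild type reads. At this depth 0 reads allow up to 3 reads per library, so a difference in these ligands was not detectable. Ifng, which signals through its own receptor, had 5, 7 and 15 reads in Aim2 KO, against 4, 2 and 2 reads in wild type. All 3 Aim2 KO libraries, replicate 1 included, exceeded wild type, by few reads.

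Of 20 genes of the receptor and signalling chain, 17 were tested, 0 were called, 4 were at an unadjusted p under 0.05 (1.93% of all genes tested), and the median log2 difference was 0.13. Irf1, a factor induced chiefly by interferon gamma, had 9.55, 7.30 and 9.50 FPKM in Aim2 KO, against 5.29, 4.88 and 3.45 FPKM in wild type, with a log2 difference of 0.83 (SE 0.17). The Aim2 KO libraries lay together above wild type, and Aim2 KO replicate 1 was the highest. The receptor chain Ifnar2 had 2.75, 2.51 and 2.32 FPKM in Aim2 KO, against 1.78, 1.93 and 1.55 FPKM in wild type. Tmem173, which averaged under 1 FPKM in wild type and was tested only through its Aim2 KO level, encodes STING, the adaptor that turns cytosolic DNA sensing into interferon production. It had 1.68, 1.79 and 2.27 FPKM in Aim2 KO, against 0.336, 1.47 and 0.805 FPKM in wild type. In Ifnar2 and Tmem173 all 3 Aim2 KO libraries exceeded wild type. A list of 28 further interferon stimulated genes had a median log2 difference of 0.27, with 25 higher (55.7% of the 22220 genes above 0), 3 lower and 0 called. The groups did not overlap, higher in Aim2 KO, in 8 of the 28 (4.78% of the 22220). Aim2 KO replicate 1 lay within the wild type range in 13 of the 28. Lgals9 (galectin 9), whose groups were separate, had 17.5, 21.4 and 24.4 FPKM in Aim2 KO, against 15.1, 10.3 and 9.15 FPKM in wild type.

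A list of 20 targets of interferon gamma, of the GBP, IRG, antigen processing and chemokine families among others, is set beside the 40. Of the 20, 19 were higher in Aim2 KO, 0 were called by limma, 14 of the 17 tested were at an unadjusted p under 0.05 (1.93% of all genes tested), and the median log2 difference was 0.82. Gbp5 and Tgtp1 were tested only through their Aim2 KO level, and Tgtp1 is among the 14, so that count does not stand as support. With array quality weights 9 of the 17 were called (0.535% of all genes tested were called higher), and 1 was without Aim2 KO replicate 1 (0.0988%). The groups did not overlap, higher in Aim2 KO, in 13 of the 20 (4.78% of the 22220 genes above 0). These counts do not stand as support either. Aim2 KO replicate 1 exceeded all wild type libraries in 13 of these 20 and in 5 of the 40 type I targets, and its median difference to the wild type mean was 0.34 and 0.05 (log2) in the 2 lists. No test of that difference between the lists was made. Tap1, the peptide transporter of antigen presentation, had 15.2, 15.7 and 17.8 FPKM in Aim2 KO, against 10.3, 7.995 and 7.25 FPKM in wild type (log2 difference 0.87, SE 0.14). Ifi47, an interferon-induced GTPase, had 2.69, 4.71 and 5.72 FPKM in Aim2 KO, against 1.34, 1.59 and 1.32 FPKM in wild type (log2 difference 1.11, SE 0.22). Psmb9, a subunit of the immunoproteasome, had 4.82, 6.27 and 8.95 FPKM in Aim2 KO, against 3.15, 3.03 and 1.71 FPKM in wild type. In all 3 genes the groups were separate with Aim2 KO replicate 1 included. In the promoter table, 8 of 15 of these targets held the ISRE-like motif.

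**Figure D4:**
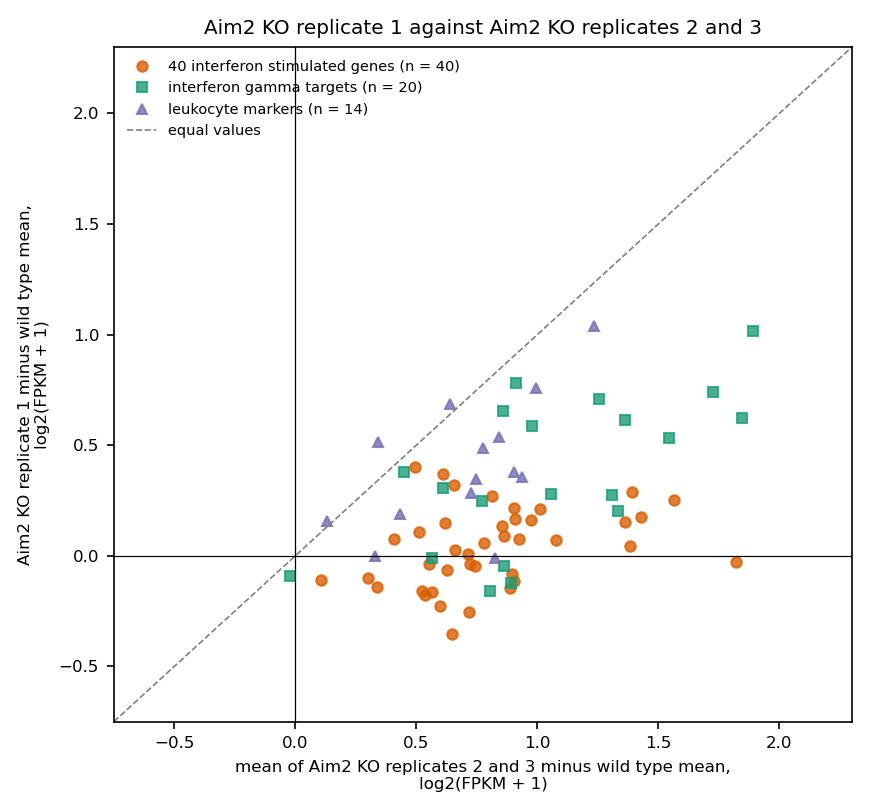
Each point is a gene, with the mean of Aim2 KO replicates 2 and 3 minus the wild type mean on the horizontal axis and Aim2 KO replicate 1 minus the wild type mean on the vertical axis, both as differences of log2(FPKM + 1); the dashed line marks equal values. The 40 interferon stimulated genes (orange) lie to the right of 0 and around 0 in height, with a median height of 0.05, and the interferon gamma targets (green) and leukocyte markers (purple) lie higher, with medians of 0.34 and 0.37.

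Markers of leukocytes, T cells and macrophages were mostly higher in Aim2 KO as well, and neutrophil markers were mixed. All 14 leukocyte markers were higher in Aim2 KO and 0 were called, with summed levels of 62.4, 65.6 and 90.9 FPKM in Aim2 KO, against 36.4, 42.8 and 36.8 FPKM in wild type, and none of the 14 was at 0 in any library. Here the sum of every Aim2 KO library, replicate 1 included, exceeded that of every wild type library. The groups did not overlap, higher in Aim2 KO, in 11 of the 14 (4.78% of the 22220 genes above 0). Of 11 tested, 9 were at an unadjusted p under 0.05 (1.93% of all genes tested). With array quality weights 7 were called (0.535% of all genes tested were called higher). Since 2 of those tested passed the filter only through Aim2 KO, these counts do not stand as support. All 9 T cell markers were higher, summing to 10.7, 8.81 and 17.4 FPKM in Aim2 KO, against 3.61, 4.60 and 2.86 FPKM in wild type. Only 3 of the 9 were tested and 0 were called, 8 averaged under 1 FPKM in wild type, and 2 of the 3 tested (Cd2 and Trac) passed the filter only through Aim2 KO. Of 11 macrophage markers 10 were higher, summing to 72.5, 156 and 174 FPKM in Aim2 KO, against 78.8, 94.9 and 94.6 FPKM in wild type. Within Aim2 KO the macrophage sum was lowest in replicate 1, as the sum of the 40 genes was, and there it lay below every wild type library. Aim2 KO replicates 2 and 3 took opposite orders in the 2 sums. In mean log2(FPKM + 1) they took the same order, at 2.36 and 2.38 for the 40 genes and 3.00 and 3.06 for the macrophage markers. Within wild type the lowest library of the macrophage sum was replicate 1 and not replicate 3. Of 6 neutrophil markers 4 were higher and 2 lower, with a median log2 difference of 0.02 and sums of 6787, 1102 and 791 FPKM in Aim2 KO, against 3498, 2304 and 2363 FPKM in wild type, nearly all of it S100a8 and S100a9. The other 4 averaged under 1 FPKM in wild type, so the sum says little about them. Aim2 KO replicates 2 and 3, the highest in the interferon stimulated genes, were the lowest of the 6 in that sum.

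Plasmacytoid dendritic cells are a chief source of type I interferon. Of their 8 markers 5 were higher in Aim2 KO, with a median log2 difference of 0.09, and their summed level (1784, 1554 and 1512 FPKM in Aim2 KO, against 2031, 1696 and 1569 FPKM in wild type) was nearly all Ly6d and Cox6a2, which epithelium and muscle also express. Siglech, the most specific of them, had 20, 23 and 35 reads in Aim2 KO, against 14, 7 and 15 reads in wild type. Of the tissue markers, the 6 endothelial genes summed to 17.4, 47.1 and 39.0 FPKM in Aim2 KO, against 25.1, 37.9 and 29.7 FPKM in wild type. The 6 fibroblast genes summed to 114, 265 and 248 FPKM in Aim2 KO, against 150, 185 and 176 FPKM in wild type. Both lists were lowest in Aim2 KO replicate 1 and highest in Aim2 KO replicates 2 and 3, as the 40 genes were in Aim2 KO, although wild type replicate 3 was not their lowest wild type library. The 10 skeletal muscle markers summed to 7978, 15249 and 14666 FPKM in Aim2 KO, against 13861, 16316 and 13130 FPKM in wild type. The 8 keratinocyte markers summed to 32805, 26782 and 30023 FPKM in Aim2 KO, against 31695, 26794 and 32966 FPKM in wild type. The part of cell makeup in the levels of the interferon stimulated genes was not tested.

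**Figure D5:**
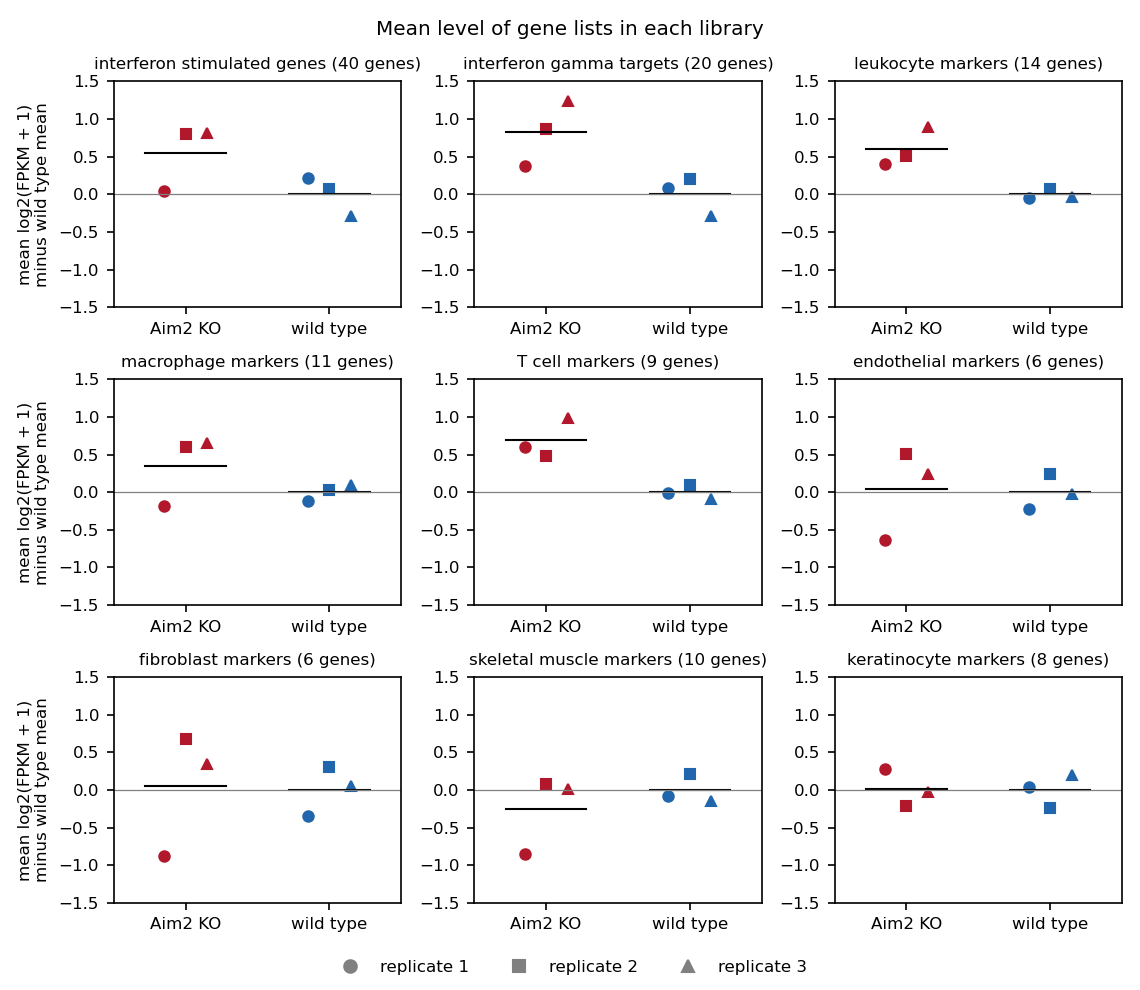
Mean log2(FPKM + 1) of each gene list in each library, minus the mean of the wild type libraries (vertical axes), for Aim2 KO (red, left) and wild type (blue, right); circles, squares and triangles are replicates 1, 2 and 3, and black lines are group means. Aim2 KO replicate 1 lies near the wild type mean for the interferon stimulated genes, above it for leukocyte and T cell markers, and below all wild type libraries for the endothelial, fibroblast and skeletal muscle markers.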

How the data were processed

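Gene expression was measured by RNA sequencing in 3 Aim2 KO and 3 wild type libraries from tongues, all after 4NQO. The deposited table holds FPKM values per gene and library, made by the authors from their reads. Which aligner, counter, build and annotation made them is not given in the sources used here. Times gene length, 100% of the deposited FPKM values above 0 are whole reads within 0.01 of a read, which gave the library totals. Coordinates of the 40 genes overlap GENCODE M21 in 40 of 40 cases and are identical in 29 (72.5%).

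In R 4.3.3, limma 3.58.1 was run with an intensity trend on log2(FPKM + 1) for genes averaging 1 FPKM or more, two-sided, with genotype as the only term and Benjamini-Hochberg adjustment at 0.05. With 3 against 3 libraries the smallest exact permutation p is 0.1, so no single-gene permutation test is given. Libraries of 1 group differed far beyond sampling noise (chi-square per gene 26.4 to 122) and all were kept.

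The 40 genes, the lists and the rules were chosen with earlier results of these data known. Per-library values are given for up to 3 tested genes per role class with the smallest unadjusted p, for the most abundant of each class, and of other lists for up to 3 genes. Dhx58, Ddx60, Oas1b, Mx1, Mx2, Rsad2, Dtx3l, Ifit3b, Siglech, S100a8, Krt13, Acta1 and the ligands were added outside that rule. Alternatives were a pseudocount of 0.1, filtering at 0.1 FPKM or not at all, scaling by median of ratios, TPM, voom on the recovered reads, array quality weights, the replicate number as a block, and leaving out each library. The names of the libraries share a stem per genotype, and the labels do not say what it stands for. Anything shared behind it, an animal included, cannot be told apart from the genotype. If libraries of a genotype share an animal, they are not independent, and the SE and p-values do not measure spread between animals.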

Additional observations from a re-analysis of the deposited data

How the results depend on the processing

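The median log2 difference over the 40 genes was 0.53 and ranged from 0.39 to 0.79 over the 14 alternatives. It was 0.39 without wild type replicate 3, 0.73 without Aim2 KO replicate 1, 0.75 with a pseudocount of 0.1 and 0.79 with voom. The number of the 40 genes higher in Aim2 KO was 40, and 39 without Aim2 KO replicate 3 and without wild type replicate 1. Of 336 values of the 24 genes named by rule, 336 were higher in Aim2 KO, and 4 passed the threshold, for Irf7, Parp9 and Parp14. Those 24 genes were named mainly by a small unadjusted p in the same libraries, so these counts describe them and are not support. The number of the 40 genes called was 0, against 3 with array quality weights and 0 to 1 with a library left out, the 1 being Irf7 without Aim2 KO replicate 1. Over all genes tested, 1 gene was called higher, against 65 with array quality weights, 0 without a filter, 0 with a filter at 0.1 FPKM, 0 with TPM and 0 to 12 with a library left out, the 12 without Aim2 KO replicate 1 and 0 without any other single library. Genes called lower were 0, against 3 with array quality weights and 0 to 2 with a library left out, the 2 without Aim2 KO replicate 1. Genes of the 40 whose groups did not overlap were 5, and 5 to 38 with a library left out, 38 without Aim2 KO replicate 1 and 16 without wild type replicate 1. Of the 12144 genes tested, 605 were separate in that direction with all libraries, 2145 without Aim2 KO replicate 1, 1094 without wild type replicate 1 and 1551 without wild type replicate 3, where the 40 genes had 5. With the replicate number as a block, 0 genes were called. Deviations from the group mean correlated at 0.35, 0.46 and 0.030 between same-numbered libraries, and at -0.46 to 0.21 between differently numbered ones. The labels do not say if the numbers pair the libraries, and these correlations do not settle it. The block left the 0 calls among the 40 as they were. The cause of these shifts was not tested. The 7 genes below the filter rest on 0 to 197 reads per library, which limits what their differences show.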
